A study of Mus musculus with 6 samples.

Results

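The crypts of the normal mouse small intestine were described here against a pool of RNA from cultured cells, on the 3 arrays of the 3 LOI(-) mice among the 6 arrays of the series, chosen by their titles. LOI(-) mice are wild type: they kept the normal silencing of the maternal Igf2 allele and carried no deletion, and they came from crosses of H19+/- females, which carry a deletion of H19 and its upstream differentially methylated region, with wild-type males of C57BL/6J. The mice were adult males of strain C57BL/6, killed at 120 days. Crypts were cut by laser capture microdissection from 10 µm frozen sections of mid small intestine, 5000 to 13000 crypts a mouse, and their total RNA was labelled with Cy3. The same array held Cy5-labelled Universal Mouse Reference RNA, a commercial pool in equal parts from 11 cultured cell lines of embryo, embryo fibroblast, kidney, liver, lung macrophage, B and T lymphocyte, mammary gland, myoblast, skin and testis origin. Each array held 1 mouse, and all crypt RNA was in Cy3, with no array of reversed dyes, so the ratio of a gene and any dye bias it has cannot be told apart.

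Crypts are pockets of the epithelium that hold the stem cells, the dividing progenitors they give rise to, and the Paneth cells that secrete antimicrobial peptides at the crypt base. Progenitors become absorptive enterocytes, mucus-secreting goblet cells, hormone-secreting enteroendocrine cells or tuft cells, and most of these leave the crypt for the villus. A microdissected crypt can also carry some of the surrounding connective tissue and immune cells, and the cell lines of the pool are mostly of other tissues and divide in culture.

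Ratios are log2 of crypt over reference signal, so 1 stands for a 2-fold higher signal in the crypts and -1 for a 2-fold lower one. A gene was called where its mean over the 3 mice was at least 1 away from 0 and its adjusted p was 0.05 or less in limma's moderated test against 0 (two-sided, Benjamini-Hochberg over 37939 genes and unnamed probes). The pool is no replicated group, so this test covers only the spread of the ratio between the 3 arrays. Each array held 1 mouse, so differences of mouse, labelling and Cy5 signal enter that spread together. How the pool itself would vary was not measured. A total of 1583 genes and unnamed probes (4.17%) were called higher in the crypts and 2136 (5.63%) lower. Among the 12354 genes with a symbol, 809 (6.55%) were higher and 1124 (9.1%) lower, and the median ratio was -0.02. These 2 shares are the background for the gene lists described here. At a limit of 4 (a 16-fold difference), 124 were higher and 30 lower. The split of the calls depends on the scaling: 42.6% of them were higher after the loess curve used here and 30.7% (1373 higher, 3095 lower) after median centring of each array.

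Ratios were wider in bright than in dim probes. The 3 arrays correlated with each other at r of 0.960 to 0.965 across genes, which are not independent replicates, and the median SD between mice was 0.0875. Among the dimmest 7587 genes and probes the ratios had an SD of 0.22 and 14 were called higher and 4 lower, while among the brightest 7588 the SD was 1.09, with 700 called higher and 886 lower, so a ratio near 0 in a dim probe says little. The 314 negative control spots set the background, and 94.0% to 95.7% of probes exceeded their 95th percentile in Cy3 and at least 97.8% in Cy5. At the bright end, 36 of the genes and probes called higher had a saturated Cy5 signal on all 3 arrays, so that their direction was not measured, and without them 1547 were higher, 787 of them named (6.37% of named genes). Among those 36 were 19 ribosomal protein genes and Actb, the cytoskeletal actin.

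**Figure D1:**
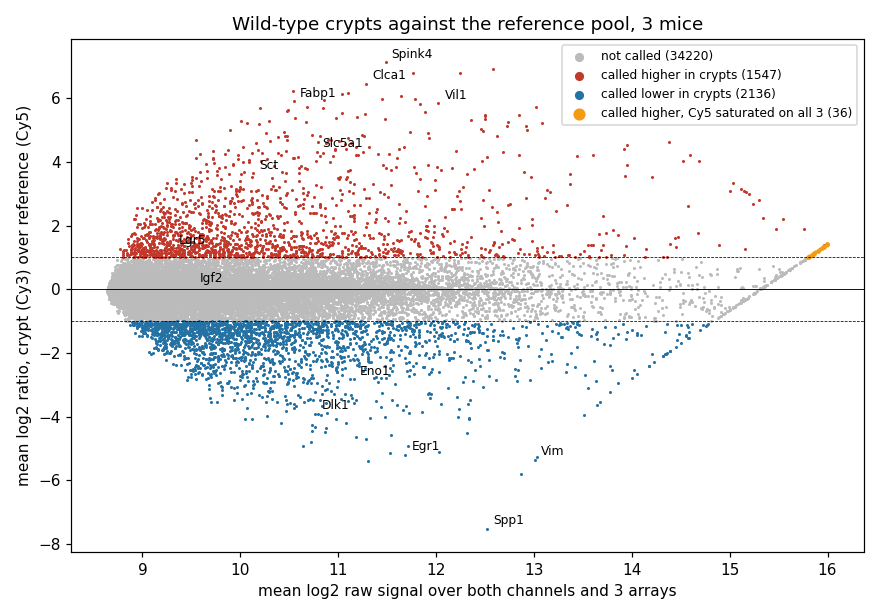
Mean log2 ratio of crypt over reference (y axis) against the mean log2 raw signal of both channels (x axis) for 37939 genes and unnamed probes, 3 mice. Red points are called higher and blue points lower, dashed lines mark ratios of 1 and -1, and the 36 orange points at the right edge were called higher with a saturated reference signal.

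Of the 15 named genes with the largest ratios, leaving out those saturated in Cy3 on all arrays, 2 were in the Paneth cell list (Spink4, Reg3b), 2 in the goblet cell list (Clca1, Ern2), 2 in the list of villus enterocytes (Enpep, Fabp1) and 1 each in the epithelial (Vil1) and testis (Prm1) lists. Spink4, a secreted serine protease inhibitor, had the largest of these ratios, at 7.27, 7.22 and 6.91 in mice 1, 2 and 3 (mean 7.13, SE 0.08, 141-fold, adjusted p = 9.18e-07). All 3 mice lay close together, and the Cy3 signal of 22733, 11094 and 12528 faced a reference signal of 614, 507 and 562. Clca1, a goblet cell protein that processes mucus, had ratios of 6.57, 6.09 and 6.69. Vil1, which bundles actin in the brush border, had ratios of 5.76, 5.88 and 5.90, with little difference between the mice. The other genes among the 15 largest were Reg3b, Aoc1, Enpep, Fabp1, Dmbt1, Tspan1, Gng3, Arg2, Ern2, Anxa13, Prr15l and Prm1. Their means lay between 5.53 for Prr15l and 6.91 for Prm1, and Prm1 and Reg3b were saturated in Cy3 in mouse 1. For Enpep, an aminopeptidase of the brush border, mouse 2 was dropped as an outlier feature and the mean of 5.94 rests on 2 mice. The 3 probes of Enpep ran from 0.37 to 5.94.

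Prm1, the sperm nuclear protein protamine 1, was the second in that order and stood apart from its partners. Its ratios were 7.02, 6.54 and 7.18, with Cy3 signals of 65517 (saturated), 17423 and 40262. Prm2, Tnp1 and Tnp2, which act with it in sperm chromatin, had mean ratios of -0.18, 0.15 and 0.00, and no other of the 27 measured testis and germ cell genes was called higher. The probe's accession is that of Prm1, and which transcripts it bound was not tested. The names of other bright probes also rest on the accession alone: for Gng3, a G protein subunit of neurons, 1 probe had a ratio of 5.69 and the other -0.02.

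**Figure D2:**
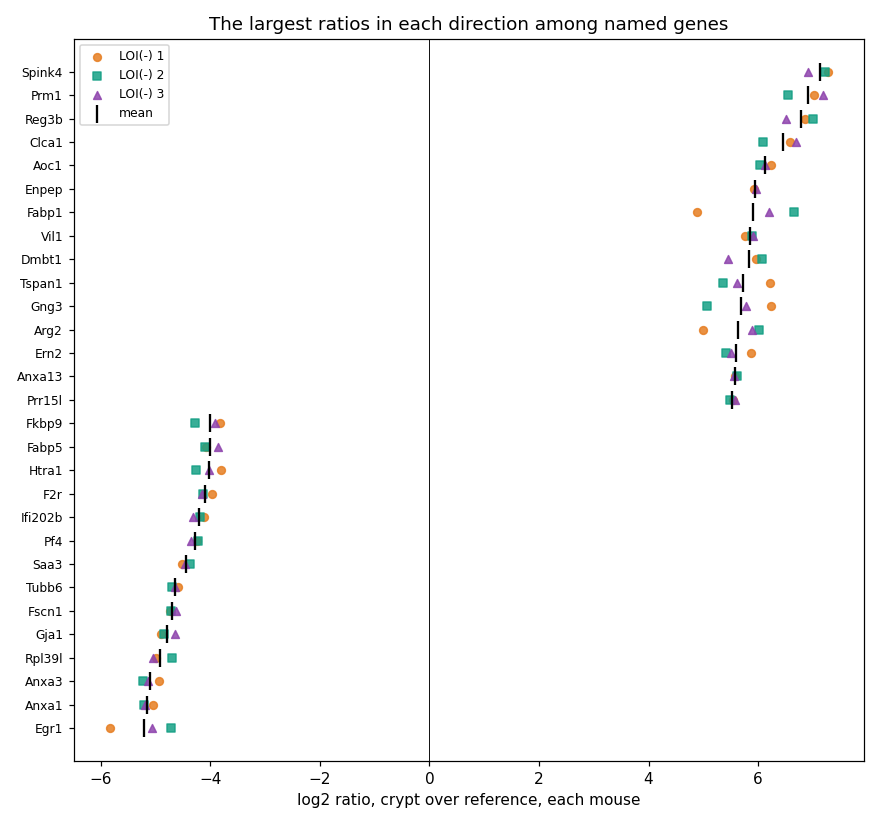
Log2 ratio of crypt over reference (x axis) in each of the 3 mice for the named genes with the largest called ratios (y axis), 15 higher and 14 lower, leaving out genes whose brighter channel was saturated, or whose dimmer channel was not above the negative controls, on all 3 arrays. Orange circles, green squares and purple triangles are LOI(-) 1, 2 and 3 and the black bar is their mean; the means run from -5.20 (Egr1) to 7.13 (Spink4), and Fabp1 has the widest spread, with LOI(-) 1 lowest at 4.88.

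The regulatory stretch of 5 genes with high ratios is shown first, because promoters could be set against the calls. Sequences are RefSeq promoters of build GRCm38.p6, 250 bases before to 50 after the start, on the strand of the gene. Where a gene has several promoters, that with the most matches is shown. Capitals mark exact matches on either strand. The letters searched were CAAAGTCCA for HNF4 and a 10-letter consensus for HNF1. For CDX factors they were CCATAAA on either strand. For AP-1 they were TGAGTCA, likewise. The TATA box was searched as TATAAAA, and no printed match overlaps another. HNF4, HNF1 and CDX factors are regulators of enterocyte genes, and AP-1 is the dimer of Fos and Jun proteins. Fabp1 and the antimicrobial lectin genes Reg3b and Reg3g are shown for their large ratios, and Sult1b1 and Sult1d1, 2 sulfotransferases, as the called genes of the highest ratio with an HNF4 and an HNF1 match.
Fabp1, chr6:71199629-71199928, strand +: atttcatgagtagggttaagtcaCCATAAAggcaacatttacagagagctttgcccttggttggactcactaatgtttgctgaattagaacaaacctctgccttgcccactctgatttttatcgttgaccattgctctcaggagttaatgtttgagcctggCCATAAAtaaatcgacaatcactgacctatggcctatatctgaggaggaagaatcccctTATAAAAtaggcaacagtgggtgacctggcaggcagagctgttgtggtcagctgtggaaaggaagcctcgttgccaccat
Reg3b, chr6:78370635-78370934, strand +: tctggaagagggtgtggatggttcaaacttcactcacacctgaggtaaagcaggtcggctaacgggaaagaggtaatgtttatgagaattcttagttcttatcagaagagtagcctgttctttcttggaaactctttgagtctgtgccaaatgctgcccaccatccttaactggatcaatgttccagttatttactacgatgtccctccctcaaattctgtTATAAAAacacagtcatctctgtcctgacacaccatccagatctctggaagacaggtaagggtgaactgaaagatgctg
Reg3g, chr6:78468825-78469124, strand -: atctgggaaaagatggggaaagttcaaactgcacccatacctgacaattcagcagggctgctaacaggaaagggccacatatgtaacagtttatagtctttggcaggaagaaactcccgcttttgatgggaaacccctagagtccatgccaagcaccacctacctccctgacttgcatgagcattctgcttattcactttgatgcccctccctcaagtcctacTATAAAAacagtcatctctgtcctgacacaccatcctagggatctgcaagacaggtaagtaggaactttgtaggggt
Sult1b1, chr5:87536173-87536472, strand -: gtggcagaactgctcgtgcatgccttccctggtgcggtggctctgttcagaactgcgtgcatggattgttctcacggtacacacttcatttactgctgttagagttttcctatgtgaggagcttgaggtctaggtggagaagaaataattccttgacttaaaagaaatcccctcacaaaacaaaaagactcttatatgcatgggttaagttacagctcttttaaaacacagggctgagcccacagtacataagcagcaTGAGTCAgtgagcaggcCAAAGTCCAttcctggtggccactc
Sult1d1, chr5:87568957-87569256, strand -: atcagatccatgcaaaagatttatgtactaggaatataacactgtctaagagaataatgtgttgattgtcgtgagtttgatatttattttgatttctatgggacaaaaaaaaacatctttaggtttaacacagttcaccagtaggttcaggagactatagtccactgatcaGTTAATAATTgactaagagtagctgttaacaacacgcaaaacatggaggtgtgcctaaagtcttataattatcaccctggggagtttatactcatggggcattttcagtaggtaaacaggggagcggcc

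The printed Fabp1 promoter held CDX letters at positions -227 and -89 and TATA letters at -30, counted from the start. Reg3b and Reg3g held TATA letters at -29 and -27. Across the genes whose promoters were searched (12236 promoters of 9820 genes), HNF4 letters stood in 0.507% of promoters. They stood in 1.24% of the 808 promoters of genes called higher and in 0.172% of the 1160 of genes called lower. HNF1 letters stood in 0.343% of all, 1.11% of the higher and 0.259% of the lower. For AP-1 the shares were 4.81%, 6.68% and 4.31%, for TATA 4.62%, 5.07% and 3.36%, and for CDX 2.28%, 2.48% and 2.5%. The HNF4 share rests on 10 promoters of genes called higher, among them Sult1b1, Trim31, Muc13 and Slc3a1, and the HNF1 share on 9, among them Sult1d1, Reg4 and Slc26a3. Several promoters can belong to 1 gene, no test was made of these shares, and a match to letters does not show that a factor binds.

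Genes of epithelial identity were high. Their list was written with earlier results of these data known, so it is no independent check on the labelled tissue. In limma's test 26 of 36 measured genes of epithelial identity were higher and 0 lower (1 below 0 at an unadjusted p under 0.05), with a median of 2.19, against 6.55% higher and 9.1% lower among all named genes. Cdh17, the liver-intestine cadherin, had ratios of 5.40, 5.45 and 5.58 (mean 5.48, adjusted p = 7.78e-07). Cdh1, the adhesion protein of epithelia, had 4.08, 4.21 and 4.24, and Epcam, another epithelial adhesion protein, 3.11, 3.09 and 3.42. The 3 mice hardly differed in any of these genes. Tspan8 (4.69), Tjp3 (4.47), Cldn7 (4.36), Krt20 (4.14) and Krt19 (4.02) were also high, while Krt18, the partner of Krt8 in simple epithelia, was bright in both channels and had a mean of 0.13. By symbol, 5 of 19 claudins, the sealing proteins of tight junctions, and 5 of 28 keratins were higher and none of either family was lower.

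Paneth cell genes held the highest median of the lists, 3.17, with 17 of 23 measured members higher and 1, Copz2, lower. The antimicrobial lectins Reg3b and Reg3g had mean ratios of 6.78 and 5.27. Reg3b had Cy3 signals of 65517, 22238 and 11730 and Reg3g of 65517, 17252 and 12786, both saturated in mouse 1, whose ratio was therefore not fully measured. Mmp7, the protease that activates alpha-defensins, had ratios of 5.48, 5.18 and 5.35 with Cy3 signals of 17475, 5339 and 9188. Ang4, a microbicidal ribonuclease, had 4.59, 3.53 and 4.53, and Mptx1, a pentraxin, 5.30, 3.13 and 4.71. In Ang4 and Mptx1, mouse 2 was lowest. For Lyz2 the probe of highest brightness had a mean of 4.21 and the 3 probes ran from 1.01 to 5.02. Lyz1, the Paneth cell lysozyme, is a near-identical copy that was not analysed here, so this signal may be shared between both copies.

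The alpha-defensins, the bactericidal peptides of Paneth granules, were beyond the range of the scanner. Defa5 was saturated in Cy3 on all 3 arrays, with Cy5 signals of 31429, 11995 and 21672. Defa3 was likewise saturated against Cy5 signals of 24206, 13279 and 22263, and Defa29 against 61892, 31694 and 51917. Itln1, an intelectin that binds microbial sugars, was saturated against 12707, 6245 and 10198. The raw Cy3 signal exceeded the Cy5 signal on every array in these 4 genes. No fold is given for them, because the loess curve alone put Rplp1, a ribosomal protein gene saturated in both channels on every array, at a ratio of 1.41. The Cy5 channel held the same pool on every array, yet for Defa31 it read 11571, 4020.5 and 7434, in the same order as the Cy3 signals of Mmp7, Ang4 and Mptx1. The range of Cy5 over arrays exceeded 0.5 (log2) in 21 of 119 probes with a Cy3 signal over 40000 (17.6%) and in 97 of 29053 probes with at most 1000 (0.334%). These limits were chosen after the values were seen. For a saturated probe the spread of the ratio between mice is therefore that of the Cy5 signal, and its cause was not tested. With saturated features left out, 16 genes of Paneth cells remained, 10 of them higher, with a median of 1.91.

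**Figure D3:**
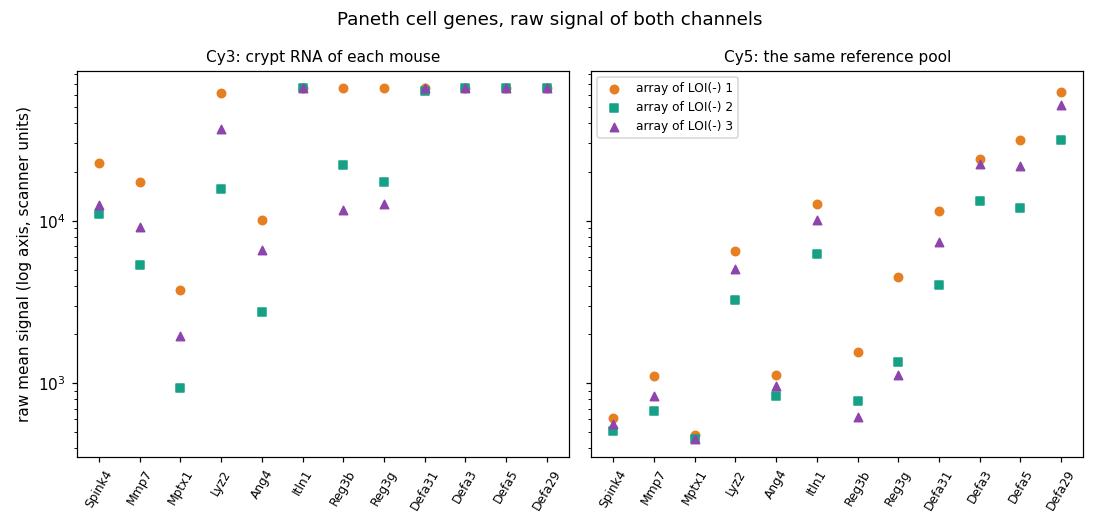
Raw mean signal (y axis, log scale, scanner units) of 12 Paneth cell genes (x axis) on the array of each LOI(-) mouse, with the crypt RNA in Cy3 on the left and the reference pool in Cy5 on the right. Itln1 and 3 of the 4 alpha-defensins are saturated in Cy3 in all mice, and LOI(-) 1 (orange circles) has the highest Cy5 signal for each of the 12 genes although the pool was the same.

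Goblet cell genes were higher in 17 of 26 measured cases and lower in 0, with a median of 2.10. Tff3, the trefoil peptide secreted with mucin, had ratios of 5.48, 5.44 and 5.44 (mean 5.45, adjusted p = 7.29e-07), nearly the same in each mouse. Muc2, the gel-forming mucin, had 3.59, 3.44 and 3.55, and Zg16, a lectin of the mucus layer, 4.48, 4.53 and 4.60. Ern2, the stress sensor of mucus-secreting cells, had a mean of 5.59, and was the 1 gene called higher among 29 of the secretory pathway and the unfolded protein response, where Ddit3 (-1.38, 2 mice) was the 1 called lower. Atoh1, the factor that directs cells to the secretory fate, had a mean of 2.41, and Spdef, which drives goblet cell maturation, 0.73 and no call.

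Of 29 enteroendocrine genes, 8 were higher and 1 lower, with a median of 0.30. All 8 are hormones or granule proteins: Sct (3.65), Chgb (3.64), Gip (2.84), Gcg (2.41), Cck (1.62), Ghrl (1.47), Nts (1.38) and Pyy (1.12). Sct, secretin, had ratios of 3.84, 3.65 and 3.46. Gip, the incretin of the upper gut, had 2.42, 3.29 and 2.82 and was highest in mouse 2. The factors that specify these cells were not called: Neurog3 had a mean of 0.18 and Neurod1 of 0.71. Cpe, a prohormone-processing enzyme, was lower at -3.39, with a reference signal of 4357 to 4405. Among 21 tuft cell genes 3 were higher, Rgs13 (1.64), Cd24a (1.63) and Sh2d7 (1.25), and 1 lower, Ptgs1 (-1.95).

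Stem cell genes gave 4 higher and 1 lower of 15 measured, with a median of 0.50. Hopx, a homeodomain protein also found in enterocytes, had ratios of 3.25, 3.20 and 3.43. Smoc2, a matricellular protein of the crypt base, had 2.88, 2.72 and 3.03. Lgr5, the R-spondin receptor that marks crypt base stem cells, had 1.48, 0.82 and 1.57 (mean 1.29, adjusted p = 0.00127). Its Cy3 signal of 811, 615 and 718 was dim, and mouse 2 was the lowest. Cdca7 (1.33) was higher and Igfbp4 (-1.91) lower. Sox9, Ephb3 and Axin2 had means of 0.50, 0.62 and 0.16 and were not called. Olfm4 and Ascl2 were not analysed here.

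Genes of mature enterocytes, cells that mostly sit on the villus, had high ratios as well. Of 41 genes of villus enterocytes and the brush border, 18 were higher and 2 lower, with a median of 0.79. Fabp1, the liver-type fatty acid binding protein, had Cy3 signals of 2150, 8573 and 5494 and ratios of 4.88, 6.66 and 6.20 (mean 5.91, SE 0.33, adjusted p = 6.86e-05). Mouse 1 was lowest by a wide margin. Fabp2, the intestinal form, had 5.06, 5.38 and 5.57, and Apoa1, the main protein of high-density lipoprotein, 2.74, 3.24 and 3.54, again with mouse 1 lowest. Guca2a, the guanylin peptide, had 5.22, 4.30 and 4.70 with mouse 1 highest. Fabp1 was the 1 enterocyte gene among the 8 named genes of the largest SD between mice (0.92). Cd36 (-1.25) and Scarb1 (-1.90), receptors for fatty acids and lipoproteins, were lower. In such bulk RNA, fewer cells of a type and less RNA per cell cannot be told apart.

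Transporters of the gut epithelium were higher in 19 of 41 measured cases and lower in 1, with a median of 0.82. Slc5a1, the sodium-glucose cotransporter, had ratios of 4.30, 4.44 and 4.20 (mean 4.32, adjusted p = 1.33e-06). Cftr, the chloride channel that drives crypt fluid secretion, had 4.31, 4.39 and 4.55. Slc7a9, the light chain of a cystine transporter, had a mean of 4.90 and its heavy chain Slc3a1 2.27, while Slc3a2, the heavy chain of other amino acid transporters, was the lower member at -1.13. Over all 254 solute carriers by symbol, 28 (11.0%) were higher and 14 (5.51%) lower, with Slc7a9 highest and the glucose transporter Slc2a1 lowest (-3.62).

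Metabolic enzymes of foreign compounds went both ways, with 15 higher and 6 lower of 36 and a median of 0.38. Sult1b1 had ratios of 5.17, 4.73 and 5.15 (its other probe gave 1.75), and Sult1d1 3.30, 3.36 and 4.28 with mouse 3 highest. Cyp4f14 (4.58), Aldh1b1 (4.42) and Cyp3a13 (3.58) were higher. Of 21 glutathione S-transferases by symbol, 6 were higher, led by the microsomal Mgst1 (2.28), and 5 lower, led by Gsta4 (-1.93); with median centring of each array in place of the loess curve 2 were higher. Enzymes of peroxisomes and fatty acid oxidation were higher in 11 of 45 cases, among them Hadh (2.31), Cpt2 (1.76) and Ehhadh (1.73), and lower in 0; with median centring 6 were higher.

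Of 35 intestinal transcription factors, 14 were higher and 3 lower, with a median of 0.33. Ehf (3.16), Klf5 (3.15), Vdr (3.13) and Nr1i2 (3.05) had the largest means. Klf5, a factor of dividing crypt cells, had ratios of 3.27, 3.01 and 3.18. Vdr, the vitamin D receptor, had 3.36, 2.69 and 3.33 with mouse 2 lowest, and its 2 probes gave 3.13 and 3.22. Cdx2 and Hnf4a, master regulators of intestinal identity, had means of 0.03 and -0.19 and were not called. Id2 (-2.14), Hoxc6 (-1.49) and Bcl6 (-1.19) were lower.

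Genes of mucosal immune defence were higher in 12 of 28 cases and lower in 0, with a median of 0.76. Pigr, the receptor that carries IgA into the lumen, had ratios of 5.36, 5.36 and 5.49 (mean 5.40), although its other probe gave 0.49. Genes of antigen presentation were among the higher ones. Cd74, the invariant chain of class II molecules, had 2.48, 2.66 and 3.07, and H2-DMb1, a class II chaperone, 3.47, 3.56 and 4.03. Psmb9, an immunoproteasome subunit, had 1.99, 2.13 and 2.59, with mouse 3 highest in all 3 of these genes. Among 43 proteasome genes by symbol, the 5 higher ones were Psmb8, Psmb9, Psmb10, Psme1 and Psme2, the interferon-inducible subunits and activator, and 10 others were lower. With median centring 3 were higher and 18 lower. Irf1, an interferon-induced factor, had a mean of 2.39, and Isg15, another such gene, -0.92 with no call.

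Signalling lists differed in their shares of calls, which are set here against 6.55% higher and 9.1% lower among all named genes. Of 35 genes of the Wnt pathway 3 (8.57%) were higher (Sp5 1.44, Lgr5 1.29, Wnt11 1.16) and 4 (11.4%) lower (Tcf7l1, Sfrp2, Fzd1 and Fzd2, from -1.42 to -1.26), shares near that background, and without background correction 0 were called in either direction. Of 25 Notch genes 5 (20%) were higher and 0 lower: the ligands Dll1 (1.56) and Dll4 (1.52), the target Nrarp (2.05), Hes6 (1.55), and Atoh1, which Notch represses. Of 9 genes of the EGF family 4 (44.4%) were lower, the ligands Ereg (-1.34), Areg (-1.16) and Hbegf (-1.09) and the feedback inhibitor Errfi1 (-2.23). Of 28 BMP and TGF-beta genes, 3 (10.7%) were higher, the signal carriers Smad1 (2.32) and Smad4 (1.80) and the ligand Bmp7 (1.18). The 4 lower ones (14.3%) included the activin subunit Inhba (-3.25), the ligand Tgfb2 (-1.35) and the receptor Tgfbr2 (-1.20). Of 29 imprinted genes 2 (6.90%) were higher, Slc22a18 (2.86) and Kcnq1 (2.29), and 5 (17.2%) lower, led by Dlk1 at -4.02, -3.81 and -3.89. These counts also fell without background correction, where 2 Notch genes were higher and 1 gene of the EGF family was lower. In that setting 2 BMP and TGF-beta genes were higher and 1 lower, and 2 imprinted genes were higher and 3 lower.

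Igf2, the growth factor whose imprinting the series addresses, did not differ from the pool beyond the limit in these wild-type crypts. Its ratios were 0.16, 0.04 and 0.08 (mean 0.09, SE 0.05, adjusted p = 0.172), with Cy3 signals of 728, 622 and 635 and Cy5 signals of 852, 822 and 794. Both signals were above the negative controls on every array, as were at least 94.0% of all probes in Cy3 and 97.8% in Cy5. The Cy3 signals of Igf2 lay not far above the array medians of 603, 552 and 552. A ratio near 0 at such signals does not show equal amounts in crypts and pool. Igf2r, which clears Igf2, had a mean of 0.25, and Insr, the insulin receptor, 0.12. H19 and Igf1r were not analysed here.

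**Figure D4:**
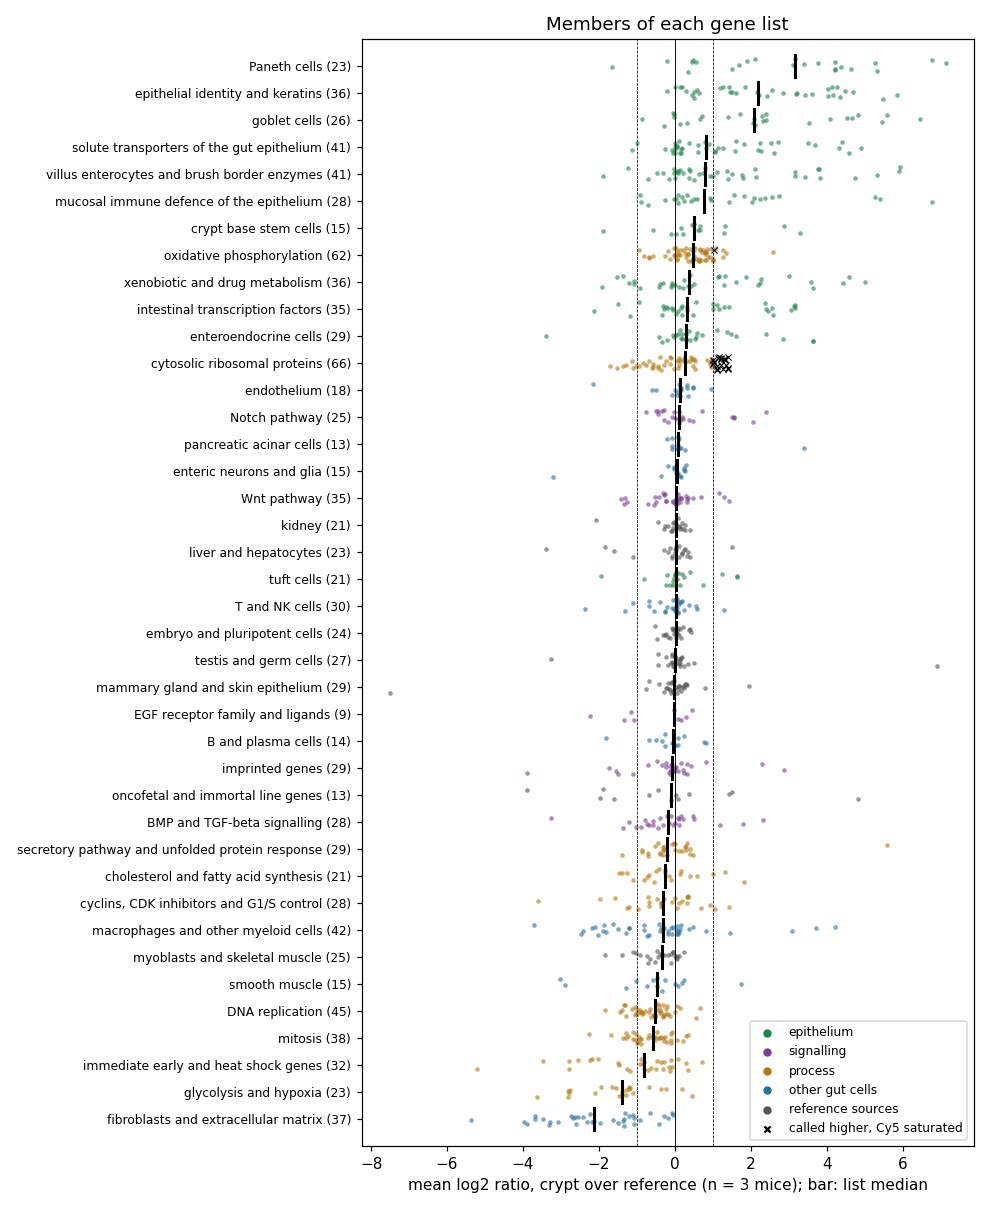
Mean log2 ratio of crypt over reference in 3 mice (x axis) of each measured member of the gene lists with at least 5 measured members (y axis, number measured in brackets), coloured by kind of list, with a black bar at each list's median. Paneth cell, epithelial and goblet cell genes have the highest medians (3.17, 2.19 and 2.10) and fibroblast genes the lowest (-2.12); crosses are genes called higher whose reference signal was saturated.

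Genes of cell division mostly had a lower signal in the crypts than in the pool of dividing cell lines. Of 45 DNA replication genes 0 were higher and 11 lower, with a median of -0.53, and 41 had a mean below 0. Pcna, the sliding clamp of DNA polymerase, had ratios of -1.43, -1.38 and -1.20, and Prim2, the large primase subunit, -1.94, -1.96 and -1.62. Of 38 mitosis genes 0 were higher and 10 lower, with a median of -0.57. Cks1b, a subunit of cyclin-dependent kinases, had -2.40, -2.36 and -2.02, and Ccna2, cyclin A2, a mean of 0.30. Mouse 3 had the smallest differences in both lists, and without it 15 genes of each list were lower. The counts depend on the setting: with median centring 19 replication and 17 mitosis genes were lower, without background correction 2 and 3, and with the limit inside the test (limma's treat) 5 and 3. In the fit used here 3 genes of each list lay above 0 at an unadjusted p under 0.05. Of 28 genes of cyclins, their inhibitors and G1/S control, 2 (7.14%) were higher, Cdkn2b (1.42) and Mycn (1.05), and 5 (17.9%) lower. The lower ones were Mycl (-3.61), Cdkn2c (-1.59), Mdm2 (-1.26), Cdkn1a (-1.21) and Cdkn2a. Cdkn2a was at least 3.94-fold lower, its Cy3 signal not above the negative controls on any array. Among all named genes the shares were 6.55% and 9.1%, and without background correction 0 genes of this list were higher and 1 lower.

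Glycolysis and hypoxia genes were lower in 18 of 23 cases and higher in 0, with a median of -1.39. Slc2a1, the glucose transporter of growing cells, had ratios of -3.73, -3.45 and -3.68 (mean -3.62, adjusted p = 2.22e-06). Eno1, an enolase, had -2.99, -2.87 and -2.62, and its 3 probes ran from -3.15 to -2.57. Gapdh was saturated in Cy5 on all arrays and was at least 2.91-fold lower. Subunits of oxidative phosphorylation had a median of 0.49, with 9 of 62 higher and 0 lower, 7 lying below 0 at an unadjusted p under 0.05. Among the 9, Cox6a1, had a saturated Cy5 signal on all arrays, and without it 8 were higher. Cox7a1, a subunit of cytochrome oxidase, had 2.32, 2.61 and 2.83. This list depends on the scaling and on mouse 1: with median centring 2 were higher, 3 lower and the median was -0.06, and without mouse 1, 5 were higher. Of 66 cytosolic ribosomal protein genes, 46 had a saturated Cy5 signal, all 19 called higher among them, and in the other 20 genes the median was -0.59 with 7 lower. Rpl9 had a mean of -1.72, and Rpl10 had ratios of -1.59, -1.75 and -1.21, lowest in mouse 2.

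Immediate early and heat shock genes were lower in 12 of 32 cases and higher in 0, with a median of -0.81. Egr1, a growth-induced zinc finger factor, had ratios of -5.83, -4.71 and -5.06 (mean -5.20, adjusted p = 2.17e-05), the largest negative mean among named genes that were not saturated. Ier3 (-3.47), Fosl1 (-2.80), Fos (-2.79), Nr4a1 (-2.23) and Jun (-2.01) were also lower. Of 21 genes of cholesterol and fatty acid synthesis 2 were higher, among them the elongase Elovl6 (1.82), and 4 lower, led by the desaturase Fads1 (-1.47).

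Genes of fibroblasts and the extracellular matrix were the lowest list, with 30 of 37 lower, 0 higher and a median of -2.12, and all 37 had a mean below 0, 35 of them at an unadjusted p under 0.05. Vim, the intermediate filament of mesenchymal cells, was saturated in Cy5 on all arrays, with Cy3 signals of 1252, 837 and 1056, and was at least 41.2-fold lower. Spp1, the secreted phosphoprotein osteopontin, was likewise at least 183-fold lower, with Cy3 signals of 537, 504 and 537. Lox, which cross-links collagen, had ratios of -4.06, -3.81 and -4.09, and Sparc, a collagen-binding protein, -3.65, -4.28 and -3.75. Dcn, a proteoglycan of connective tissue, had -1.05, -2.08 and -1.37, with Cy3 signals of 2209, 1117 and 1634, highest in mouse 1. Of 29 collagens by symbol 9 were lower and 0 higher. The pool holds an embryo fibroblast line, so a negative ratio of such a gene gives no bound on fibroblasts carried with the crypts. All 37 genes of the list were above the negative controls in Cy3 on all 3 arrays. So were 94.0% to 95.7% of all probes on each array, so this does not set the list apart.

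The other genes of the lowest ratios were mostly of cell shape, secretion and inflammation. Anxa1 had ratios of -5.05, -5.20 and -5.19 and Anxa3 of -4.94, -5.23 and -5.14, both membrane-binding annexins. Annexins went both ways: Anxa13, the intestinal form, had 5.57, 5.62 and 5.56, and of 12 measured 3 were higher and 6 lower. Tubb6, a beta-tubulin, had a mean of -4.65, and of 17 tubulin genes 7 were lower and 0 higher. Galectins also split, with Lgals2 at 4.22, 4.19 and 4.20 and Lgals1 at least 15.4-fold lower. Gja1, the gap junction protein connexin, Fscn1 and F2r had means of -4.79, -4.69 and -4.09.

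**Figure D5:**
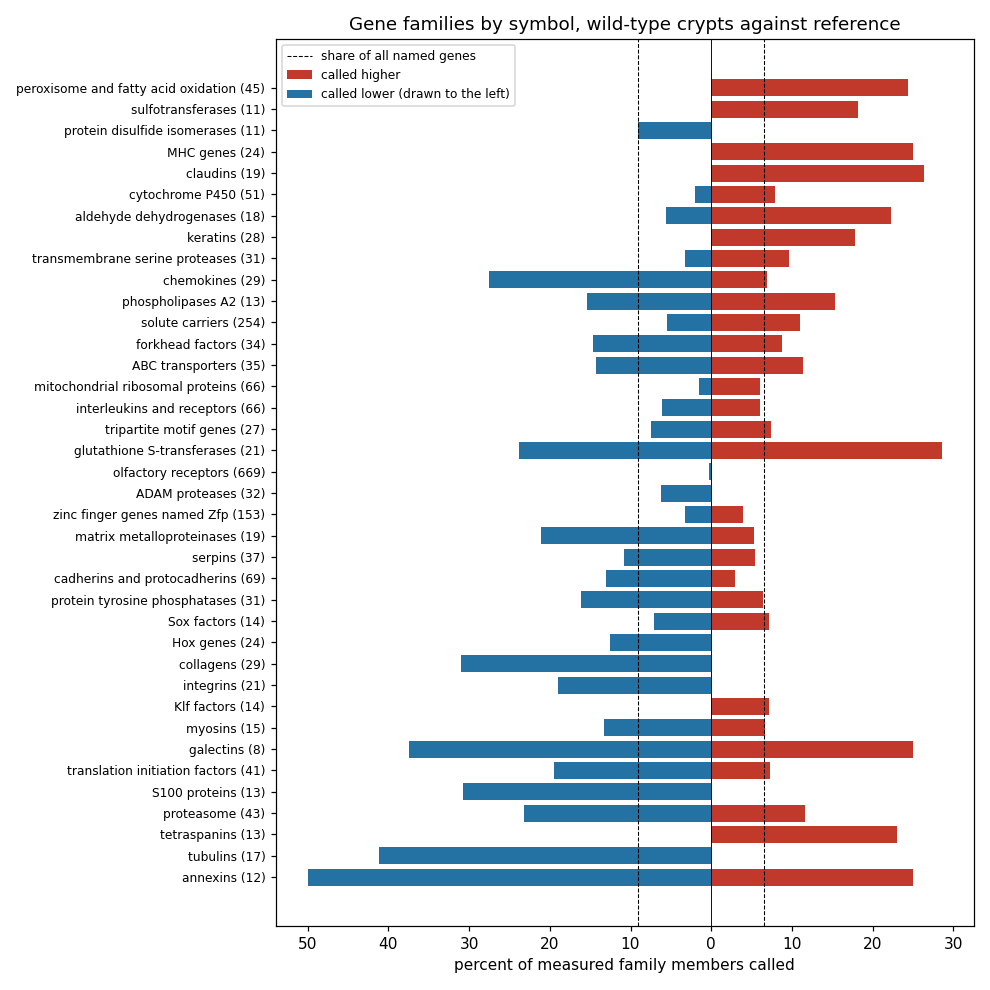
Share of measured members (x axis, percent) called higher (red, to the right) and lower (blue, to the left) in each gene family defined by symbol (y axis, number measured in brackets, ordered by median ratio), with dashed lines at the shares of all named genes, 6.55% and 9.1%. Claudins, keratins, MHC genes and peroxisome genes have no lower member, and tubulins, collagens and S100 proteins no higher one; the families were chosen after the values were seen.

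Markers of other cells of the gut wall were mostly near 0 or lower. The shares lower were 5.56% for endothelial, 6.67% for neural, 7.14% for B and plasma and 10% for T and NK cell genes. These lay near the 9.1% of all named genes, while smooth muscle (26.7%) and myeloid genes (33.3%) lay above it. Shares higher were at most 9.52% (myeloid), against 6.55%. Of 18 endothelial genes 0 were higher and 1 lower, Cd34 (-2.17), and 14 had a mean above 0, with a median of 0.14. Of 15 smooth muscle genes 1 was higher, Mylk (1.73), and 4 lower, and the muscle-specific Des, Cnn1 and Actg2 had means of 0.02, 0.23 and -0.72. Of 14 B and plasma cell genes 0 were higher and Cd79b (-1.81) was lower. Of 30 T and NK cell genes Gzma, a granzyme of cytotoxic cells, was higher at 1.12, 1.16 and 1.62, while Cd3g, Lat and Ccl5 were lower. Of 42 myeloid genes 14 were lower, among them Ptprc (-2.18) and Adgre1 (-2.03), the leukocyte and macrophage surface markers, and 4 were higher. These 4 were Lyz2, Ctsc (3.72), C1qa at 3.52, 2.94 and 2.76, and C1qc (1.45). The pool holds a macrophage line and lymphocyte lines, so a negative ratio of such a marker gives no bound on those cells in the crypts, and their part in these results was not tested. Of 15 neural and glial genes Stmn2 (-3.22) was lower and none higher, and of 13 pancreatic acinar genes Clps (3.41), also in the Paneth cell list, was higher.

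Genes typical of the tissues from which the reference lines came were mostly not called, the oncofetal list aside. Kidney genes were lower in 4.76% and mammary gland and skin genes in 3.45%, below the 9.1% of all named genes. Liver (17.4%) and muscle genes (16%) were lower more often than that. Of 24 genes of embryonic and pluripotent cells limma called 0, although 6 above 0 and 6 below 0 had an unadjusted p under 0.05 at smaller ratios, and the unmoderated test also called 0. Of 21 kidney genes Hoxa10 (-2.08) was lower, of 23 liver genes C3 (-3.39), Hp (-1.83), Afp (-1.60) and Itih2 (-1.09) were lower and F2 (1.51) higher, and of 25 muscle genes 4 were lower, led by Myl4 (-1.85). Of 29 mammary gland and skin genes Spp1 was lower and Wap, a milk protein, higher at 2.30, 1.38 and 2.15. Of 13 oncofetal genes 3 (23.1%) were higher, Plac8 (4.82), Mdk (1.52) and Cdkn2b, and 4 (30.8%) lower, Dlk1, Cdkn2a, Igf2bp3 (-1.88) and Afp. Olfactory receptors, the odour receptors of the nose, gave 1 higher and 2 lower of 669.

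Spread between mice was concentrated in a few genes. All 3719 called had the same sign in every mouse measured, which the limit and the test make nearly certain. Of them, 2970 had all their mice past 1 in the same direction, and the median SD of the called was 0.150. The 8 named genes of the largest SD, all called higher, were Kctd2, Slc6a9, Mptx1, Gltp, Foxe1, Defa31, Krtap4-13 and Fabp1. Kctd2 had Cy3 signals of 26808, 4494 and 10352 against a steady 4390, 4460 and 4164 in Cy5, and ratios of 3.83, 1.42 and 2.70. Slc6a9, a glycine transporter, had 4.04, 1.81 and 3.53, and Foxe1, a thyroid factor, 4.01, 2.12 and 3.27. Mouse 1 was highest and mouse 2 lowest in Kctd2, Slc6a9, Mptx1, Gltp, Foxe1 and Krtap4-13, as in the Cy3 signals of Mmp7 and Ang4. In Fabp1 and Defa31 this order was reversed. Defa31 was saturated in Cy3 in mice 1 and 3 and read 63110 in mouse 2, so the spread of its ratio is largely that of its Cy5 signal.

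A gene with several probes was taken from its brightest probe, and its other probes did not always give the same ratio. Of 467 called genes with more than 1 probe, all probes passed 1 in the same direction in 184, 280 had a probe in between, and 3 had a probe past 1 in the other direction. Aoc1, a diamine oxidase, ran from 2.26 to 6.13, Tspan1 from 0.37 to 5.73 and Fscn1 from -4.69 to -0.73. Kctd2 ran from 0.27 to 2.65, Scarb1 from -1.90 to -0.24 and Fzd1 from -1.30 to 0.01. Cyp3a13 (0.00 to 3.58), Kcnq1 (-0.12 to 2.29), H2-DMb1 (0.22 to 3.68), Adgre1 (-2.03 to -0.06), Igfbp4 (-1.91 to -0.08) and Afp (-1.60 to 0.23) each had a probe near 0, and for Cdkn1a (-1.21 to 0.39), F2 (-0.36 to 1.51) and Ccna2 (-0.96 to 0.30) the probes lay on both sides of 0. Of 25585 probes without a symbol here, 774 were called higher and 1012 lower, and these are not described further.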

How the data were processed

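The 3 arrays are 2-colour Agilent scans, 1 LOI(-) mouse each, quantified by version A.7.5.1 of Agilent Feature Extraction, which the file headers name. The deposited values used are the intensity of each spot (mean signal and median local background of both channels), with flags for saturated and outlier spots. The authors' deposited log10 ratio of Cy5 over Cy3 and the processed signals come from the software's own background and dye steps, and the processed signals served as an alternative. Background was corrected by normexp with an offset of 50 and each array was normalised by loess with limma 3.58.1 in R 4.3.3, control spots at weight 0, and log2 of Cy3 over Cy5 was tested against 0 by lmFit and eBayes. Arrays have no read depth, and their number, 3, limits the precision. A probe counted as above background over the 95th percentile of 314 negative control spots. A channel saturated on all arrays gives a bound on a fold, not a value. Bounds compare the mean normalised log2 signals of both channels, with the saturated spot at its value, and are open to dye bias.

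Of 41006 probes, 15421 (37.6%) were matched by accession to 12354 RefSeq symbols, a gene taking its brightest probe, and 25585 stayed unnamed. Of 1432 genes written in 41 lists, 1113 had a probe. Members, lists, families and motifs were chosen with earlier results of these data known. Named genes are the 15 largest called ratios in each direction, up to 4 called members a list in its main direction and 2 in the other, the 8 largest SD, and the IGF genes; other genes named were chosen after their values were seen. On simulated data, the test called 0% of genes with a true ratio of 0.5, 94% at 1.5, 98% at 2 and 100% at 3, 50 genes each, and no unchanged gene. Unchanged genes were drawn around 0 with the observed spread between mice, mostly far below the limit of 1, so that limit alone kept them uncalled. The simulation held no dye bias or saturation and gives no error rate for the real calls. The p-values measure the spread of the ratio between the 3 arrays, in which differences of the mice and of both channels cannot be told apart. Outlier spots were dropped, which left 122 genes or probes with 2 arrays. Alternatives covered background, normalization, filters on dim and saturated spots, choice of probe, test, ratio limit and each mouse left out. The LOI(+) arrays were not used here, and a few genes the rule names are not reported here.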

Additional observations from a re-analysis of the deposited data

How the results depend on the processing

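No gene or probe was called in opposite directions under the main and any alternative setting, over the 18 alternatives run, but the number called moved. Without background correction 812 were higher and 971 lower, against 1583 and 2136. With the limit inside the test (limma's treat) 995 were higher and 1366 lower, with a ratio limit of 2, 542 and 548, and with no limit, 9082 and 9881. Leaving out 1 mouse at a time gave 1573 to 1644 higher and 2050 to 2238 lower. Median centring gave 1373 and 3095, and of its lower calls 2090 were shared with the loess calls. The unmoderated test gave 1219 and 1834, and features with no saturated spot 1523 and 2108. Background taken from the negative controls, an alternative chosen after seeing the data, gave 1617 and 2221. With the probe of highest Cy3 signal, Afp turned from -1.60 to 0.23, since another of its probes was taken. In the unmoderated test 4 enteroendocrine genes were higher in place of 8, and 2 stem cell genes in place of 4. No paired analysis was possible because a single group is described and both channels of an array are already set against each other. Dim probes compress the ratio, bright ones saturate, and the missing dye swap and the unreplicated pool limit every ratio.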

Other observations

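Counts for further gene families, against 6.55% higher and 9.1% lower among all named genes, are as follows. Of 35 ABC transporters 4 (11.4%) were higher, led by Abcg5, which exports plant sterols, at a mean log2 ratio of 3.79, and 5 (14.3%) lower, and the paralogs Abcb1a and Abcb1b stood among the highest and the lowest of the family. Of 13 tetraspanins 3 (23.1%) were higher and 0 lower. Of 29 chemokines 2 (6.90%) were higher, Ccl6 at 4.83 and Ccl25, which attracts lymphocytes to the small intestine, at 2.02, and 8 (27.6%) lower, led by Cxcl12 at -3.90. Of 34 forkhead factors 3 (8.82%) were higher, Foxe1, Foxa3 (2.40) and Foxa1 (1.42), and 5 (14.7%) lower. Shares were near the background in 37 serpins (5.41% higher, 10.8% lower), and 41 translation initiation factors had 7.32% higher and 19.5% lower. These families were defined by symbol after the values were seen, and no test was made of any of them.

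The share of probes whose Cy5 signal of the pool had a range over 0.5 (log2) between arrays did not follow brightness evenly. It was 0.334% of 29053 probes with a Cy3 maximum up to 1000, 2.67% of 7709 up to 5000, 0.251% of 798 up to 20000, 2.17% of 138 up to 40000 and 17.6% of 119 above that. By number most such probes, 206, had a Cy3 maximum between 1000 and 5000.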
